A study of Homo sapiens with 6 samples.

Results

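Merged lists of N6-methyladenosine (m6A) peaks from U2OS cells, a human osteosarcoma line, were compared: 15272 regions from cells given control siRNA and 13147 from cells given DF2 siRNA 1, which targets the m6A reader YTHDF2. Together these are 28419 of the 41729 regions that the 3 lists of the series hold. A control region belonged to the shared class when a block of it had at least 1 base in common with a block of a siRNA 1 region on the same strand, and to the control-only class otherwise. The siRNA 1 regions were classed in the same way against the control list. No score, fold or siRNA 2 peak entered these classes.

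The labels give each condition 1 anti-m6A immunoprecipitation and 1 input library of cytoplasmic RNA, cut to fragments of about 100 nt. The names of the lists mark them as a merge of r1 and r2, and what these are and how they were merged is not given in the labels. All cells were wild type, with the siRNA as the difference that the labels give, and a second DF2 siRNA is quoted below for single genes alone. The share of all peaks that overlap a siRNA 2 peak is not given, so whether such genes are unusual cannot be read from them. With 1 merged list per condition there was no replicate spread to set a difference against. Intervals in brackets are 95% exact (Clopper-Pearson) binomial intervals, which cover counting error over peaks or genes of these lists. Neighbouring peaks are not independent, and read depth is unknown here. The labels call the cells epithelial. Of 7 epithelial marker genes 0 had a control peak and 2 (KRT8 and CLDN4) had a siRNA 1 peak, and of 9 osteoblast and mesenchymal markers 2 (RUNX2 and COL1A1) had a peak in both lists and VIM with siRNA 1 alone, which describes m6A peaks and not expression.

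The m6A mark is written on RNA by the METTL3-METTL14 complex, mostly in long exons around stop codons and in 3′ UTRs. YTHDF2 binds m6A in the cytoplasm and brings the CCR4-NOT deadenylases to the transcript, which is then degraded, so a transcript's level and its methylation both bear on whether a peak is called. Antibodies to m6A also bind m6Am, the methylated adenosine that PCIF1 makes at the first transcribed base next to the cap. YTHDF2 held 1 peak in each list, over 2000 bases in control and 1600 bases with siRNA 1, at percentile 99.1 and 84.3 of the scores of its own list. A list of m6A peaks holds no RNA level, so the knockdown could not be checked from these values.

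The siRNA 1-only peaks differed from the shared ones at the 5′ ends of transcripts, so the sequences around 12 start sites are shown first. They belong to 12 of the highest-scoring siRNA 1-only 5′ UTR peaks that cover 1 RefSeq start of their own protein-coding gene. Each line gives 10 bases before the start and 20 bases from it, 5′ to 3′ on the gene's strand. The base at the annotated start is in capitals (RefSeq, GRCh38.p14). The upstream edge of the peak lay from 2 bases (TMSB4X) to 298 bases (CD63) before that start. Whether transcription began at the annotated start in these cells was not tested.
TMSB4X: cccgcccgacAactcggtggtggccactgc
SDF4: gcgcccgttcGcaccgcccccgcccgcaag
PFN1: gggctgctgcAcagcgagcggagccgcggt
NDUFA1: cggccgcgggGcttgctgggaagagaggcg
TIMM17A: cttgcccggcAtcactcgcggcattggagt
UQCR11: gcgcctgcgcAgtgtagccgggtcagctgg
UQCRH: cttacaagtcCttcttgatcctgaactggg
TXNDC5: gagcgcgcccAgccccgccgcgatgcccgc
TIMP1: aggccctgccGccatcgccgcagatccagc
JTB: gcgaggcgccAccgacgcggaagactataa
CTNNB1: gcgccattttAagcctctcggtctgtggca
CD63: gggcgcagctAgagagccccggagccgcgg

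The base at the annotated start was A in 8 of these 12 windows, G in 3 and C in 1. TMSB4X encodes thymosin beta 4, which binds actin monomers, and its start lies at base 12975110 of chromosome X, in the window 12975100 to 12975129 of the plus strand. Its siRNA 1-only 5′ UTR peak ran from 12975108 to 12975307, covered 200 bases and stood at percentile 95.3 by score. PFN1 encodes profilin, a further actin-binding protein, with its start at base 4948530 of chromosome 17, minus strand, and a peak of 400 bases at percentile 91.5. NDUFA1 and UQCRH encode subunits of respiratory complexes I and III, and UQCR11 encodes another of complex III. Their peaks stood at percentile 90.9, 88.9 and 90.1. TIMM17A is a subunit of the mitochondrial import channel (percentile 90.2), TIMP1 an inhibitor of matrix metalloproteinases (88.3), TXNDC5 a thioredoxin-domain protein of the endoplasmic reticulum (88.5) and SDF4 a calcium-binding protein of the Golgi (91.9). JTB (87.97), CTNNB1, the WNT effector beta-catenin (85.2), and CD63, a tetraspanin of late endosomes (84.8), complete the set. SDF4, TIMM17A, UQCR11, CTNNB1 and CD63 had a control peak elsewhere in the gene, and the other 7 had none.

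Of control peaks, 10252 (67.1%, 66.4 to 67.9) were shared and 5020 (32.9%) were control-only. Of siRNA 1 peaks, 10713 (81.5%, 80.8 to 82.1) were shared and 2434 (18.5%) were siRNA 1-only. The control list was longer and wider in total, with 12.1 Mb covered against 9.12 Mb. With the same number of top peaks taken from each list, 3098 control and 2616 siRNA 1 peaks were unshared, so the gap between the classes was then smaller.

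Control-only peaks were weak within their list. Their median score stood at percentile 19.04 and their median fold enrichment was 9.98, against 65.3 and 27.9 for shared control peaks. An FDR of 0.01 or more was listed for 39.3% of control-only peaks and 8.70% of shared ones. The siRNA 1-only peaks stood higher in their list, at a median percentile of 34.5 against 54.8 for shared siRNA 1 peaks, with median folds of 9.34 and 18.0 and an FDR of 0.01 or more for 41.0% and 11.9%. The score, the fold and the FDR are the authors' own values of a peak, and they rank peaks within 1 list.

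Strong peaks were found again in the other list more often than weak ones, with a steeper course in control. By deciles of the score, the shared part of the control list went from 6.17% (4.999 to 7.53) in the lowest decile to 99.1% (98.5 to 99.5) in the highest. In the siRNA 1 list it went from 68.0% (65.4 to 70.5) to 96.0% (94.8 to 97.0). At the lower end the curves are far apart, and in the upper 5 deciles the control share is the higher one. Ranked by fold enrichment the lowest deciles held 6.65% and 66.7% shared peaks, and there the siRNA 1 curve lies above the control curve up to the highest deciles. Width went the same way. Peaks of up to 200 bases were shared in 28.8% of control and 46.2% of siRNA 1 cases, and peaks over 1000 bases in 92.9% and 99.2%.

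**Figure D1:**
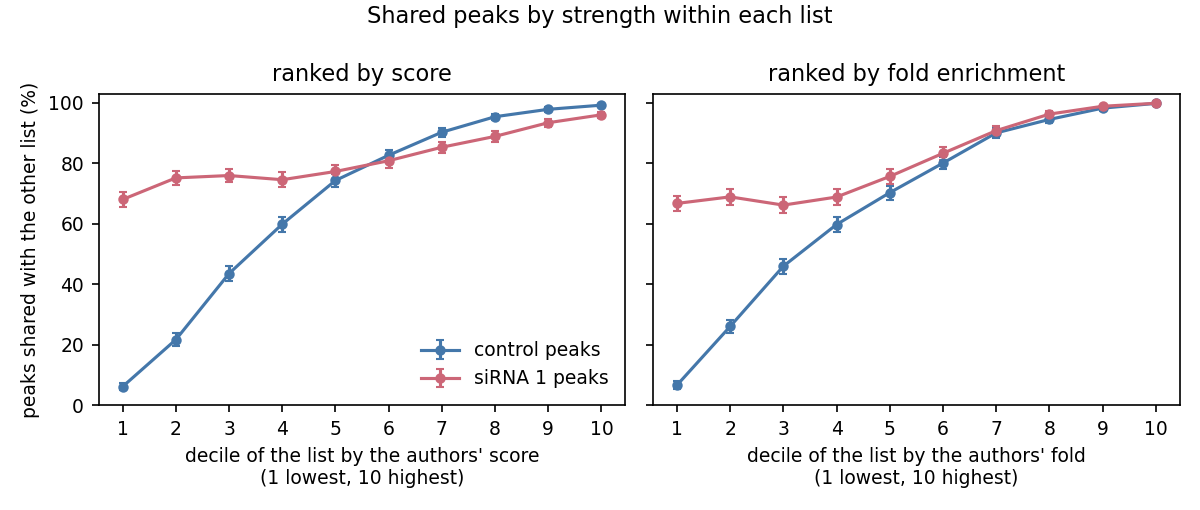
Percent of peaks shared with the other list (vertical axis) by decile of each list, ranked by the authors' score (left) or fold enrichment (right), for control peaks (blue) and siRNA 1 peaks (red); bars are 95% binomial intervals. The control curve starts at 6.17% and the siRNA 1 curve at 68.0% by score, and they cross in the middle of the lists.

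An unshared peak often lay in a gene that the other list also marked. Of control-only peaks 2451 (48.8%) lay in genes with a siRNA 1 peak, and of siRNA 1-only peaks 1416 (58.2%) lay in genes with a control peak. Few of these were near misses. Along the genome, 222 (9.06%) of the 2451 control-only peaks lay within 200 bases of a peak of the same gene in the other list and 1743 (71.1%) lay over 1000 bases away, introns included. For the 1416 siRNA 1-only peaks these counts were 199 (14.1%) and 1002 (70.8%). By chromosome, the shared part ranged from 56.9% on chromosome 18 to 78.4% on chromosome 22 for control peaks, and from 75.8% on chromosome 17 to 91.1% on chromosome 18 for siRNA 1 peaks.

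Peaks of the 5′ UTR made up 1056 of the 2434 siRNA 1-only peaks, or 43.4% (41.4 to 45.4), against 13.3% (12.7 to 13.9) of shared siRNA 1 peaks. A 5′ UTR peak here is one whose annotation by the authors names the 5′ UTR and neither the stop codon nor the 3′ UTR. The difference was far smaller for control-only peaks, with 15.7% (14.7 to 16.7) against 13.8% (13.2 to 14.5) of shared control peaks. Seen from the regions, 57.4% of siRNA 1 peaks in 5′ UTRs were shared, against 84.5% of those in 3′ UTRs, 84.7% in coding sequence, 86.6% in non-coding RNA and 89.2% at stop codons.

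The 5′ UTR share of unshared and shared peaks was also read within quartiles of the score. From the lowest to the highest quartile of the siRNA 1 list by score it was, for siRNA 1-only peaks, 46.4%, 47.1%, 37.4% and 31.0%, and among shared siRNA 1 peaks of the same quartiles 16.2%, 15.8%, 13.0% and 9.29%. The intervals of unshared and shared peaks do not overlap in any quartile. In the control list the order was the other way round in every quartile, with 17.8%, 14.5%, 7.17% and 4.17% for unshared and 27.5%, 19.7%, 13.6% and 7.55% for shared peaks, though the highest quartile held only 72 unshared control peaks and its intervals overlap. When the label was kept to peaks within the 5′ UTR alone, it applied to 21.7% of siRNA 1-only and 4.71% of shared siRNA 1 peaks. When sharing required an overlap of 50% of both peaks, 5′ UTR peaks were 29.2% and 13.8%.

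**Figure D2:**
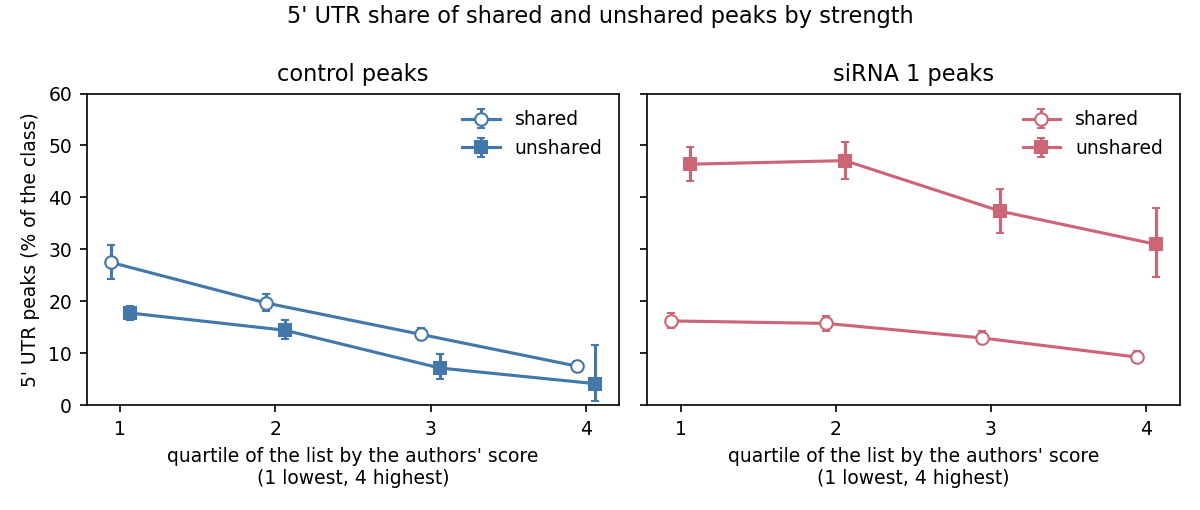
Percent of peaks in the 5′ UTR (vertical axis) by quartile of each list ranked by the authors' score, for shared peaks (open circles) and unshared peaks (filled squares) of the control list (left) and the siRNA 1 list (right); bars are 95% binomial intervals. Unshared siRNA 1 peaks lie at 31.0% to 47.1% and shared ones at 9.29% to 16.2%, while unshared control peaks lie below shared ones.

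Many of these peaks reached an annotated transcript start. A RefSeq start lay inside 696 (28.6%, 26.8 to 30.4) of the siRNA 1-only peaks and 9.41% (8.86 to 9.98) of shared siRNA 1 peaks, against 9.18% and 10.3% of control-only and shared control peaks. Within 5′ UTR peaks the shares were 53.3% (50.3 to 56.4) and 42.1% (39.5 to 44.7) for unshared and shared siRNA 1 peaks. At stop codon peaks they were 15.5% (12.7 to 18.6) and 5.75% (5.12 to 6.42).

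In 3 measures, the letters at those starts did not differ between siRNA 1-only and shared siRNA 1 peaks of the 5′ UTR beyond counting error. As in the 12 windows above, A was the commonest first base, at 55.6% (51.6 to 59.6) of the 622 RefSeq starts inside siRNA 1-only 5′ UTR peaks and 53.1% (49.3 to 56.9) of the 680 inside shared ones. It was the first base of 46.5% (45.6 to 47.4) of all RefSeq starts of genes in either list. The pair CA, with C just before the start and A at it, was found at 40.7% (36.8 to 44.7), 37.6% (34.0 to 41.4) and 33.7% (32.9 to 34.6) of these starts on the transcribed strand. GGAC, a frequent core of the m6A motif, was present on that strand within the first 50 bases of 24.3% (21.0 to 27.8), 23.7% (20.5 to 27.1) and 19.9% (19.2 to 20.7), and of 18.9% of all 35116 RefSeq starts. The intervals of unshared and shared peaks overlap for all 3 measures. The G and C share of the bases after the start, for which no interval was made, was 68.7%, 66.1% and 65.4% for siRNA 1-only peaks, shared siRNA 1 peaks and genes in either list. Whether a peak at a start holds m6A or m6Am was not tested.

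Genes with a control peak elsewhere held most of these 5′ UTR peaks. Of the 1056, 658 (62.3%, 59.3 to 65.2) lay in genes that also had a control peak. The share was 58.2% for all siRNA 1-only peaks. By region it went from 35.1% in non-coding RNA to 71.0% in coding sequence, so it was not particular to the 5′ UTR. SLC7A5, the light subunit of an amino acid transporter with the highest-scoring peak of both lists, had 2 control peaks and 3 siRNA 1 peaks. The additional one covered 400 bases of the 5′ UTR from 87869089 to 87869488 (chromosome 16, minus strand), at percentile 99.1 and a fold of 32.2. ACTB (cytoplasmic beta-actin) held a siRNA 1-only 5′ UTR peak at percentile 97.8 beside a shared stop codon peak at 99.9. CTSZ, a lysosomal cysteine protease, had one at percentile 93.5 (fold 36.7), and LY6K, a GPI-anchored protein, one at 95.4.

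In TIMP2, a metalloproteinase inhibitor, IGF1R, the insulin-like growth factor receptor, and WDR26, a subunit of the CTLH ubiquitin ligase, the siRNA 1-only 5′ UTR peaks had the highest folds of the 10 genes named by this rule, 57.7, 44.3 and 63.9. These 3 also overlapped a siRNA 2 peak. The 5′ UTR peaks of SLC7A5, ACTB, LY6K, CTSZ, SDF4, TIMM17A and UQCR11 did not, although each gene had a siRNA 2 peak somewhere. No such share over all 5′ UTR peaks of the siRNA 1-only class is set beside these 10 genes.

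Control-only peaks differed from shared ones in the opposite part of the transcript. Stop codon peaks made up 23.6% (22.4 to 24.8) of them and 52.4% (51.4 to 53.4) of shared control peaks, 3′ UTR peaks 25.9% (24.7 to 27.2) and 15.7% (15.04 to 16.5), and peaks of non-coding RNA 22.4% (21.2 to 23.5) and 7.81% (7.30 to 8.35). The stop codon share rose with the score in both classes. In the middle quartiles of the control list by score, the stop codon share was 33.9% in the lower and 56.5% in the upper one of unshared peaks, and 33.4% and 53.8% of shared ones. In the lowest quartile it was 12.9% and 18.2%, and in the highest 63.9% (51.7 to 74.9) and 70.1% (68.6 to 71.6). With both lists cut to the 50% of peaks with the highest scores and the classes formed anew, so that a control peak over a weaker siRNA 1 peak counts as unshared, the shares were 55.9% and 64.3%. The 3′ UTR difference stayed in each quartile, at 25.1%, 26.7%, 28.0% and 29.2% for unshared and 16.6%, 20.02%, 17.0% and 11.6% for shared control peaks.

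**Figure D3:**
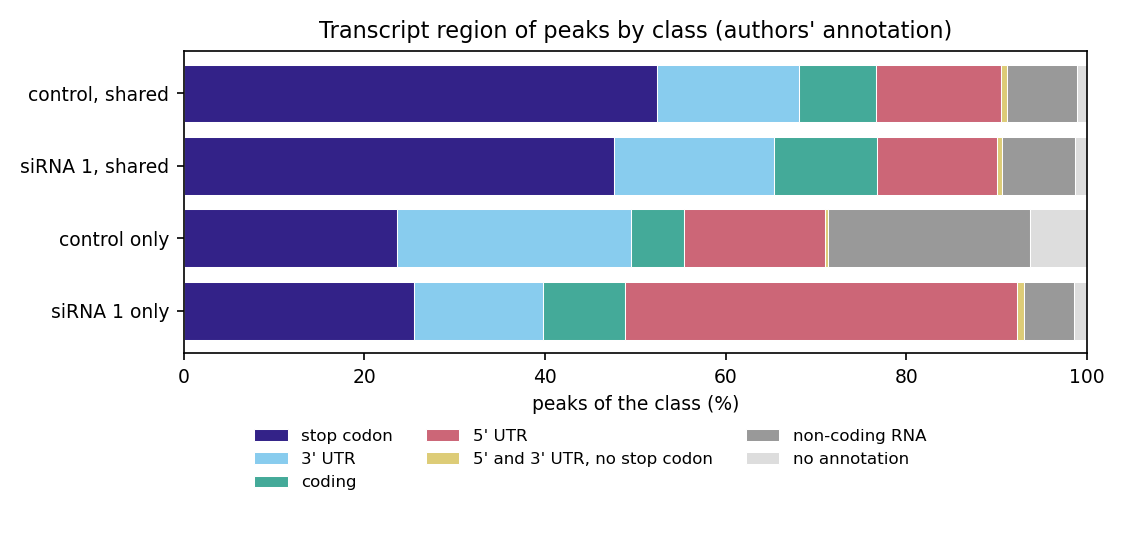
Percent of peaks (horizontal axis) in each transcript region of the authors' annotation, for shared and unshared peaks of both lists. The 5′ UTR segment is 43.4% of siRNA 1-only peaks and 13.3% to 15.7% of the other classes, and non-coding RNA is 22.4% of control-only peaks.

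Non-coding RNA peaks of the control list were found again less often than those of coding transcripts. Of 1923 such control peaks 41.7% (39.4 to 43.9) were shared, against 81.9% of stop codon peaks, 74.8% of coding peaks, 64.3% of 5′ UTR peaks and 55.4% of 3′ UTR peaks. Of 1000 siRNA 1 peaks in non-coding RNA 86.6% (84.3 to 88.7) were shared. They were weak in both lists, with median percentiles of 22.1 and 16.3. In the lowest quartile of the control list by score non-coding RNA made up 29.6% of unshared and 21.6% of shared peaks, in the next 14.6% and 17.9%, then 1.74% and 4.83%, and in the highest 1.39% and 1.25%. With both lists cut to their upper 50% by score and the classes formed anew, as for stop codons, the shares were 5.21% and 2.04%. Of the 1122 control-only peaks in non-coding RNA, 915 lay in genes with no siRNA 1 peak at all.

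Where a peak was shared, it was more often narrower than wider with siRNA 1. In 8613 cases 1 control peak overlapped 1 siRNA 1 peak and no other. The siRNA 1 peak was narrower in 3932 (45.7%, 44.6 to 46.7), wider in 1291 (15%, 14.2 to 15.8) and of the same width in 3390 (39.4%, 38.3 to 40.4), and in 3234 (37.5%) both covered exactly the same blocks. Median widths were 800 and 600 bases. Of the bases of the control peaks 80.1% were covered again with siRNA 1, and of the bases of the siRNA 1 peaks 93.5% were covered in control. Most narrower pairs differed by 1 or a few 200-base bins, with 1982 pairs narrower by exactly 200 bases and 1643 by 400 or more.

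Bases were missing at both edges, and over all pairs more often at the 3′ one. On the 5′ side 27.0% (26.1 to 28.0) of pairs had bases covered only in control and on the 3′ side 34.5% (33.5 to 35.5), against 10.1% and 9.20% with bases covered only with siRNA 1. Summed over the pairs, control alone covered 671 kb on the 5′ side and 854 kb on the 3′ side of the pairs, and siRNA 1 alone 228 kb and 195 kb. The 3′ excess was not found in every region. Control-only bases on the 5′ and 3′ side were present in 27.9% and 39.4% of stop codon pairs and 28.7% and 33.4% of 3′ UTR pairs. In non-coding RNA they were present in 35.5% and 47.4%, in coding sequence in 24.7% and 24.0% and in 5′ UTRs in 18.4% and 16.3%.

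The balance depended on the region. At stop codons 49.97% of pairs were narrower and 11.97% wider, in 3′ UTRs 45.9% and 15.5%, in coding sequence 37.2% and 21.5% and in non-coding RNA 60.7% and 7.10%. In 5′ UTRs the counts were even, with 315 of 1218 pairs (25.9%, 23.4 to 28.4) narrower and 323 (26.5%, 24.1 to 29.1) wider. By quartiles of the siRNA 1 score, from the lowest, 62.9%, 52.4%, 44.02% and 30.2% of pairs were narrower, and 9.58% in the lowest and 21.0% in the highest were wider. By quartiles of the control score no such course was seen, with 41.4%, 53.6%, 48.2% and 39.2% narrower, and with 22.0% wider in the lowest and 15.3% in the highest.

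**Figure D4:**
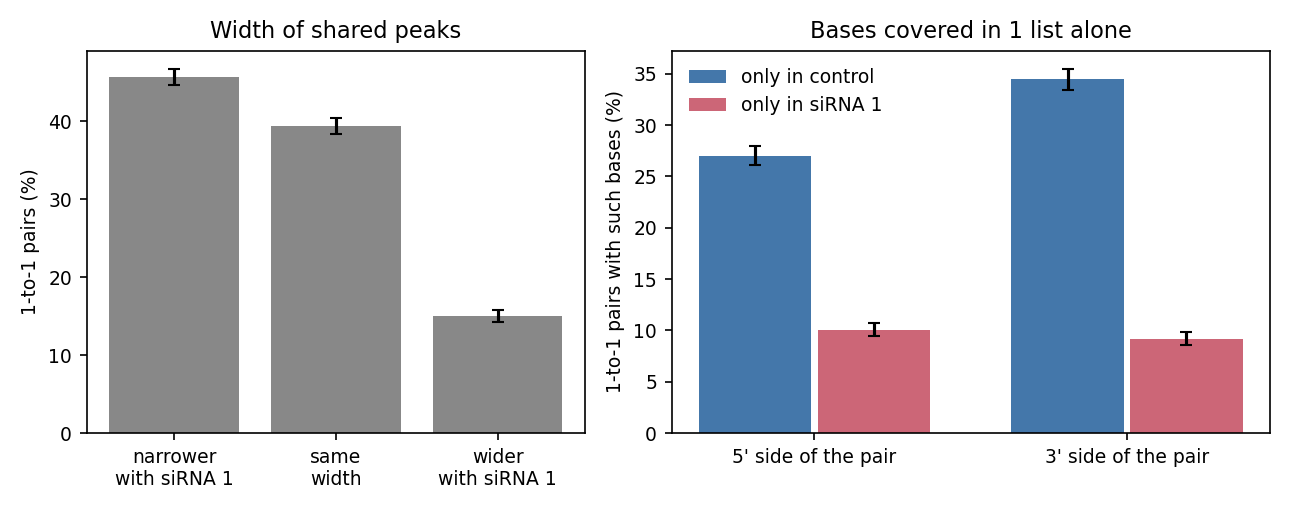
Left, percent of 8613 one-to-one pairs in which the siRNA 1 peak was narrower, equal or wider than the control peak; right, percent of pairs with bases on the 5′ or 3′ side covered in control only (blue) or with siRNA 1 only (red); bars are 95% binomial intervals. Narrower pairs are 45.7% and wider ones 15%, and the 3′ side holds control-only bases in 34.5%.

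The 10 pairs that narrowed most did so by 1200 bases or more. Among pairs in the top 50% of both lists, the peak of GCNT2, a glycosyltransferase, went from 3600 bases in control to 1000 with siRNA 1. In BOD1L1, a protein of replication fork protection, 4200 bases became 2400. METAP1D, a mitochondrial methionine aminopeptidase (2250 to 800), FAHD1, a mitochondrial hydrolase (2400 to 1000), ZNF131, a zinc finger protein, and IFNAR1, a subunit of the type I interferon receptor (both 2200 to 1000), DCLRE1B, a telomere nuclease, and BPTF, a chromatin remodeller (both 2400 to 1200), and RNF6, a ubiquitin ligase (2000 to 800), were also among the 10 that narrowed most.

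The pair that widened most in the same part of the lists was that of JUN, an immediate-early transcription factor encoded by a single exon. Its peak on the minus strand of chromosome 1 covered 800 bases in control, from 58781528 to 58782327, and 2400 with siRNA 1, up to 58783927. It stood at percentile 87.3 of the control scores and 98.8 of the siRNA 1 scores. NFIC, a CCAAT-binding transcription factor, went from 1200 to 2600 bases and stood at percentile 99.5 and 99.8. FIBCD1 (600 to 1831), GPRC5C (1200 to 2400), PLEC, the cytolinker plectin (600 to 1800), TTYH3 (1000 to 2200), SERPINH1, the collagen chaperone (314 to 1314), NHSL3 (1000 to 2000), TNS1, a focal adhesion protein (600 to 1600), and CDC42EP1, a CDC42 effector (800 to 1800), followed. All 10 wider peaks and all 10 narrower ones overlapped a siRNA 2 peak. These pairs were picked from strong shared peaks, and the share over all such pairs is not given. The overlap does not bear on the change in width.

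The highest siRNA 1 scores belonged to pairs that were equal or wider. The 2 shared peaks of SLC7A5 went from 1200 to 1745 and from 800 to 1200 bases, that of CTSZ from 1000 to 1200, and those of BASP1, a membrane and nuclear signalling protein, and CALR, the lectin chaperone calreticulin, covered the same 1800 and 400 bases in both lists. The CALR peak lay at the stop codon from 12943776 to 12944175 on the plus strand of chromosome 19, at percentile 99.7 of the control list, with a siRNA 1 fold of 178 and a control fold of 30.8, which are not on a common scale.

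Control peaks were broken up more often than they were joined. Of shared control peaks 1190 (11.6%) overlapped 2 or more siRNA 1 peaks, and of shared siRNA 1 peaks 850 (7.93%) overlapped 2 or more control peaks. Overlapping genes that are listed separately can raise both counts. Within 1 gene, 599 control peaks overlapped 2 or more siRNA 1 peaks and 184 siRNA 1 peaks overlapped 2 or more control peaks. ZDBF2, an imprinted gene with a long last exon, had 1 control peak of 7000 bases and 6 siRNA 1 peaks, all of which overlapped it. The other control peaks with the most partners, those of AC010642.1 and ENSG00000283515 (7 each, at the same place) and of CTD-2192J16.20 and RP11-315D16.2 (6 each), and the siRNA 1 peaks of PPAN-P2RY11 (5), P2RY11, RP11-613M10.8, RBM14-RBM4 and CTD-3222D19.2 (4 each), include readthrough genes and second entries of a place.

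By gene, 7484 of 10551 genes had a peak in both lists (70.9%, 70.1 to 71.8), 2134 in control only (20.2%, 19.5 to 21.0) and 933 with siRNA 1 only (8.84%, 8.31 to 9.40). As parts of their own lists these were 22.2% of control genes and 11.1% of siRNA 1 genes. These classes go by the gene a peak is listed under, and 43 control-only and 29 siRNA 1-only genes had a peak that overlapped one of another gene in the other list. Of the genes in both lists, 7271 had a shared peak and 213 had peaks at different places only. Of the 1530 control-only genes with a RefSeq entry of the same symbol, 82.0% were protein-coding, 10.1% lncRNA and 7.32% pseudogenes, against 95.3%, 2.59% and 1.77% of the 848 siRNA 1-only genes. The strongest peak of a control-only gene lay in the 5′ UTR in 12.3% and in non-coding RNA in 36.8%, and that of a siRNA 1-only gene in the 5′ UTR in 37.1% and in non-coding RNA in 9.32%. Among protein-coding genes, 14.5% were control-only and 9.34% siRNA 1-only, and these shares are the background for the gene groups below. For the 5′ UTR counts of those groups the background is the 12.3% and 37.1% above.

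The control-only genes with the highest scores were genes with 1 or 2 short peaks at the stop codon. The first 15 stood between percentile 84.5 (GARS1) and 91.4 (CD164) of the control list, and in 13 of them the peak included the stop codon. The −log10 FDR was 2 or less in 7 of the 15, so several of the peaks with the highest scores were near the authors' limit of an FDR of 0.05. SEC31A, a COPII coat subunit, had a peak of 400 bases from 82818806 to 82819205 (chromosome 4, minus strand), with a fold of 12.7. ERGIC2 and RAB1A act between the endoplasmic reticulum and the Golgi and EMC4 in membrane protein insertion, with folds of 14.7, 11.3 and 12.3. TMPO, a lamina-associated protein, had the highest fold of the 15 at 42.4. CD164, PERP, SLC25A3, SLC71A1, ELOVL5, ARPC2 and HMGN3 were the others with no siRNA 2 peak, as was GARS1, the glycyl-tRNA synthetase (fold 14.8). MYL6, a myosin light chain, had a siRNA 2 peak that overlapped its control peak, and PAPOLA, the nuclear poly(A) polymerase, had one elsewhere in the gene.

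The siRNA 1-only genes with the highest scores stood higher in their list, between percentile 94.8 (YBX3) and 99.9 (FTH1), and were of a different kind. Short structured non-coding RNAs and copies of mitochondrial genes were among the first 15. Over the whole classes, the strongest peak lay in non-coding RNA in 9.32% of siRNA 1-only and 36.8% of control-only genes. RPPH1, the RNA of RNase P, had a peak of 400 bases from 20343086 to 20343485 (chromosome 14, minus strand) at percentile 99.3, which RNaseP_nuc repeats as a second entry at the same place. RN7SL1, the RNA of the signal recognition particle, had a peak of 200 bases at percentile 96.8, and ENSG00000283029 is a second entry 1 base away. MTATP6P1 (percentile 99.8) and MTND2P28 (98.6) are nuclear pseudogenes on chromosome 1, and reads of the mitochondrial genes they copy cannot be told from theirs here. None of these 6 entries, the second entries included, had a siRNA 2 peak. No such share over all siRNA 1-only genes is set beside this.

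The protein-coding genes among the 15 were FTH1 (ferritin heavy chain), CLPTM1L, PKM (pyruvate kinase), TMSB4X, ECEL1, PRSS56, TMSB10, L1CAM (a neural adhesion molecule) and YBX3 (a cold-shock-domain protein). TMSB10, the paralog of TMSB4X, had a peak of 496 bases from 84905625 to 84906675 on chromosome 2 that reached the RefSeq start, at percentile 95.7 and a −log10 FDR of 1.60. TMSB4X had, beside the 5′ UTR peak shown above, a 3′ UTR peak of 200 bases at percentile 98.1. The siRNA 1 peaks of FTH1, CLPTM1L, PKM, L1CAM and YBX3 overlapped a siRNA 2 peak, TMSB4X and ECEL1 had a siRNA 2 peak elsewhere, and PRSS56 and TMSB10 had none.

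The m6A writers had peaks in both lists. All 10 genes of the writer complex and related methyltransferases with a peak in either list had one in both, and 16 of their 19 control peaks were shared. Of all protein-coding genes with a peak in either list, 6588 of 8650 were in both, and 67.1% of all control peaks were shared. CBLL1, an associated ubiquitin ligase, and METTL14 had narrower strongest peaks with siRNA 1, at 1200 and 400 and at 1400 and 600 bases, and METTL16, a separate methyltransferase, had 1200 and 1000. Of all 1-to-1 pairs 45.7% were narrower with siRNA 1. METTL3 had its control peak in the 5′ UTR at percentile 12.04 and its stronger siRNA 1 peak at the stop codon at percentile 49.6, at different places. Of 15 readers and erasers 11 (73.3%) were in both lists, near the share of all protein-coding genes. FMR1 and FXR1 were control-only, each with a 3′ UTR peak, and HNRNPA2B1 and HNRNPC were siRNA 1-only, each with a peak of 200 bases. The strongest peaks of ALKBH5, an m6A eraser, and of EIF3A were shared, at percentile 94.6 and 97.4 and at 99.6 and 99.9 of their lists.

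The deadenylation and decay factors include the CCR4-NOT subunits that YTHDF2 brings to a transcript, beside other decay factors. Of 29 with a peak 21 had peaks in both lists, and in all 21 the strongest control peak was shared. Of all genes in both lists 7271 of 7484 had some shared peak, which is a looser measure. How often the strongest control peak was shared over all these genes is not given. CNOT10, CNOT11, CNOT7, DCP1A (a decapping factor) and RPP30 (a protein subunit of RNase P) were control-only and none of their strongest peaks lay in the 5′ UTR. CNOT1, the CCR4-NOT scaffold, CNOT8, one of its deadenylases, and LSM14A were siRNA 1-only, and all 3 had a 5′ UTR peak of 200 bases, at percentile 33.1, 8.67 and 48.8. Of all control-only genes 12.3% and of all siRNA 1-only genes 37.1% had the strongest peak in the 5′ UTR. Classes this small varied, with 1 of 4 siRNA 1-only genes among reported YTHDF2 targets and 0 of 4 among ZNF genes. Of 23 genes reported in the literature as YTHDF2 targets, 17 were in both lists. AXIN2 and E2F8 were control-only by gene name, although the 1 control peak of AXIN2 overlapped a siRNA 1 peak listed under another gene, and GLI1, MAP4K4, STAT5A and TRAF1 siRNA 1-only, at percentile 5.76 to 29.9. This target list rests on general knowledge of other cells and is not independent of earlier results on these files.

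Immediate-early and rapid-turnover genes, transcripts of short half-life such as ATF3, CCN1, CCN2 and DUSP1, were in both lists in 43 of 43 cases, and in all 43 the strongest control peak was shared. Some shared peak, a looser measure than a shared strongest peak, was found in 7271 of all 7484 genes in both lists. The immediate-early and rapid-turnover genes had strong peaks, with a median percentile of 75.8 in control and 82.4 with siRNA 1, each within its own list. They also had 9 siRNA 1-only 5′ UTR peaks, 1 of them in CCN2 and others in EGR1, FOS and GADD45B, next to the shared ones. Of 53 chromatin regulators 51 were in both lists, with SMARCA2 control-only and KDM5C siRNA 1-only. They held 150 peaks in each list, of which 128 control and 124 siRNA 1 peaks were shared. In the signalling group (TGF-beta, WNT, NOTCH, Hippo) 48 of 54 genes were in both lists. AXIN2 (by name, as above), SMAD4 and TCF7L2 were control-only. DVL2, DVL3 and GSK3A were siRNA 1-only with 5′ UTR peaks in all 3, against 37.1% of all siRNA 1-only genes.

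Translation factors had the largest siRNA 1-only part of the 21 groups counted. Of 27 initiation and elongation factors with a peak, 16 were in both lists, 2 were control-only (EIF2S2 and EIF4E, the cap-binding protein) and 9 (33.3%) siRNA 1-only, against 9.34% of all protein-coding genes. In 7 of the 9 the strongest peak lay in the 5′ UTR, among them EIF1AX (percentile 69.8), EIF2B5 (18.7) and EIF4A3 (38.6), a core protein of the exon junction complex, while that of EIF2B4 lay at the stop codon. EEF1A1, the elongation factor, had its strongest control peak at the stop codon at percentile 80.1 and its strongest siRNA 1 peak, which was siRNA 1-only, in the 5′ UTR at percentile 16.3.

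Nuclear-encoded subunits of the respiratory chain and ATP synthase followed, with 10 of 32 (31.2%) siRNA 1-only, 6 control-only and 16 in both. Here too 7 of the 10 had the strongest peak in the 5′ UTR, ATP5IF1 (percentile 69.5), ATP5MF (70.1, at a place shared with a control peak of another gene) and NDUFA1 (90.9) among them, and NDUFA11 had it in the 3′ UTR. The control-only members included ATP5MG, NDUFA10, NDUFA6 and NDUFB3. Of 34 autophagy and lysosome genes, 18 were in both lists, 6 control-only and 10 siRNA 1-only, the last with ATG13, a subunit of the ULK1 complex, and ATG9A, a membrane scramblase, at stop codons and ATG3 and ATG4D in 5′ UTRs. Of 39 genes of the cytoskeleton and actin regulation, 21 were in both, 7 control-only (ARPC2, ARPC3, MYL12B and MYL6 among them) and 11 (28.2%) siRNA 1-only. ACTR2, ARPC1B and ARPC4, all subunits of the Arp2/3 complex, were among the 11 and were marked in the 5′ UTR. Over the 11 genes, the strongest peak lay in the 5′ UTR in 4 (36.4%) and at the stop codon in 4. For all siRNA 1-only genes the 5′ UTR share was 37.1%.

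Cytosolic ribosomal proteins showed the reverse order. Of 26 with a peak 14 were in both lists, 9 (34.6%) control-only and 3 siRNA 1-only, against 14.5% and 9.34% of all protein-coding genes. The control-only peaks were weak, with a median percentile of 16.2, and 6 of the 9 lay in the 5′ UTR, RPL15 and RPL23A among them, while RPL10 and RPL14 had 3′ UTR peaks. RPL22 and RPL8 had siRNA 1-only 5′ UTR peaks and RPL29 a 3′ UTR peak. Many ribosomal protein genes have processed pseudogenes of near-identical sequence, and whether reads were shared with these was not tested.

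Zinc finger genes of the ZNF family, whose long last exons often hold broad m6A peaks, were the largest group. Of 348 with a peak 297 were in both lists, 47 (13.5%) control-only, ZNF112, ZNF140, ZNF143 and ZNF155 among them, and 4 (1.15%) siRNA 1-only, namely ZNF177 (whose place is shared with a control peak of another gene), ZNF330, ZNF358 and ZNF598. They had 649 control and 534 siRNA 1 peaks, of which 434 (66.9%) and 502 (94.0%) were shared. ZNF10 had a strongest peak of 2000 bases in control and 400 with siRNA 1, ZNF101 of 2400 and 1600, and ZNF107 of 1800 and 600. The median percentile of the group was 46.7 in the control list and 29.9 in the siRNA 1 list, each within its own list.

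Heat shock and unfolded protein response genes had 27 of 30 members in both lists, 0 control-only and 3 siRNA 1-only. These were HSPB1 and HSPB8, small heat shock proteins, and HSPH1, a nucleotide exchange factor of HSP70. All 3 had 5′ UTR peaks, at percentile 69.5, 59.0 and 46.2, against 37.1% of all siRNA 1-only genes with the strongest peak there. ATF4, the transcription factor of the integrated stress response, had a control peak in the 5′ UTR at percentile 19.7 and a strongest siRNA 1 peak in coding sequence at 77.8. Of 28 p53 pathway genes, 21 were in both, FAS, PERP, POLK, RRM2B and TP53INP1 control-only, and BAX and CDKN1A siRNA 1-only. CDKN1A, the cyclin-dependent kinase inhibitor p21, had a 5′ UTR peak of 400 bases at percentile 91.8. Of 40 cell cycle genes 25 were in both, 8 control-only (CDC6, CENPA, CENPE and E2F7 among them) and 7 siRNA 1-only (CCND3, CDK2, CDKN1A and E2F4 among them).

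Of 44 genes of the secretory pathway, 30 were in both lists, 8 control-only and 6 siRNA 1-only. In 6 of the 8 the strongest control peak lay at the stop codon. The 8 stood at a median percentile of 77.1, below the 85.7 of the whole group in the control list. For all control-only genes, 36.8% of them with the strongest peak in non-coding RNA, it was 20.3. EMC4, ERGIC2, RAB1A and SAR1B were among the 8, and ERGIC3, SEC24C, SEC24D and SEC63 among the siRNA 1-only ones. CANX, the lectin chaperone calnexin, had a 5′ UTR peak of 200 bases in each list that did not overlap, at percentile 1.27 in control and 81.4 with siRNA 1. Of 41 genes of extracellular matrix and adhesion 35 were in both, and COL18A1, COL4A1 and LOXL3 were control-only. ITGAV, LOX and TIMP1 were siRNA 1-only, all 3 with 5′ UTR peaks, against 37.1% of all siRNA 1-only genes.

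Of 15 glycolysis genes 9 were in both lists, PDK3, PFKFB2 and PFKP control-only and HIF1A, PFKL and PKM siRNA 1-only. Of 182 SLC solute carriers 142 were in both, 26 (14.3%) control-only and 14 (7.69%) siRNA 1-only, near the background, and 8 of the 14 had the strongest peak in the 5′ UTR. Of 20 members of the group of named long non-coding RNAs 13 were in both, DANCR, DLEU2 and JPX control-only and HOTAIRM1, LINC01003, RPPH1 and SNHG15 siRNA 1-only. RPPH1 is counted in this group although it is the short RNA of RNase P. HOTAIR, an antisense transcript of the HOXC cluster, had a shared peak at percentile 51.8 in control and 33.1 with siRNA 1. All 21 groups were chosen with earlier results of these lists known, and their shares are descriptions.

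**Figure D5:**
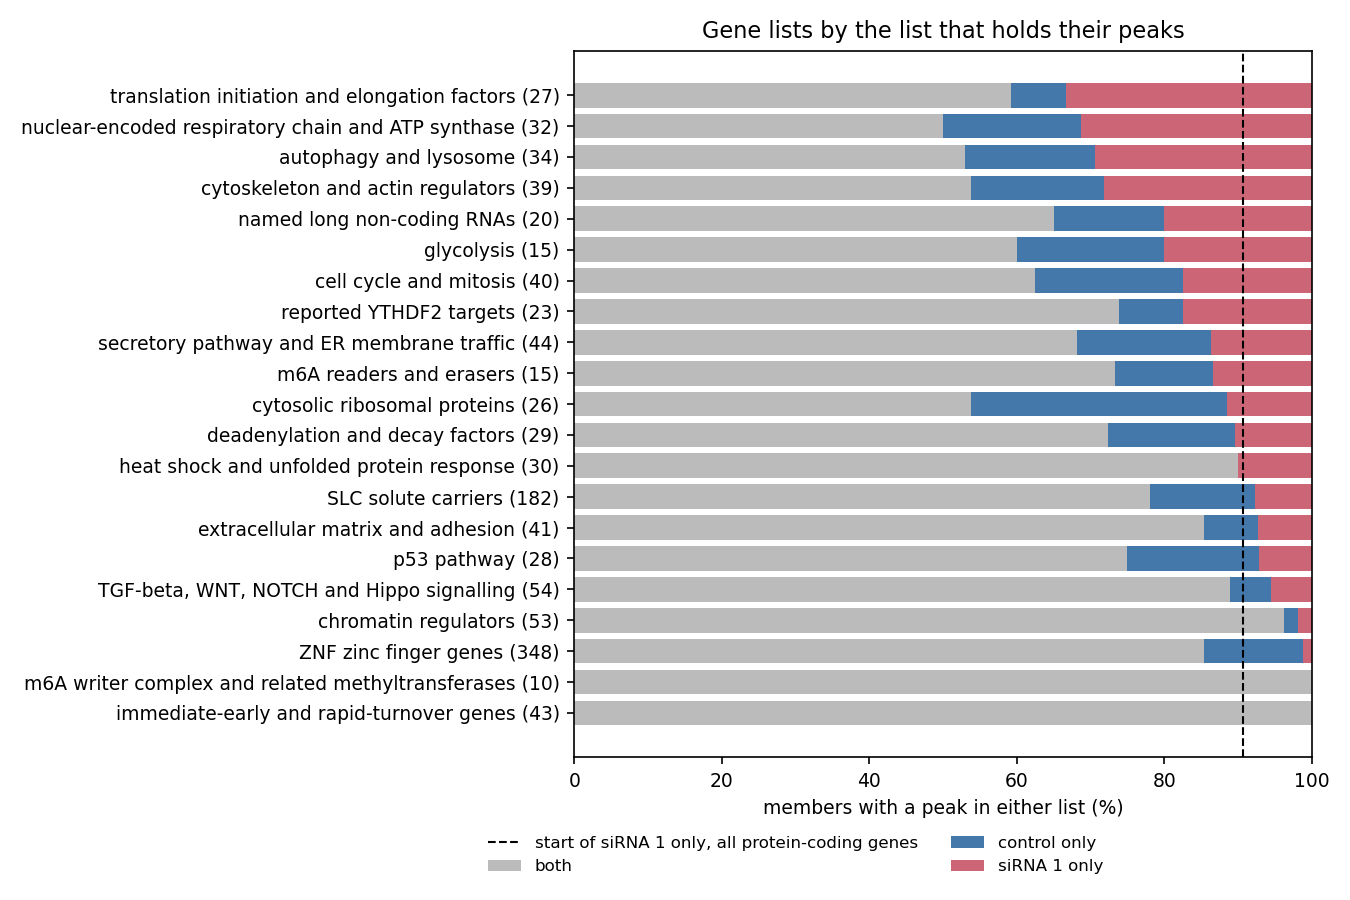
Percent of the members with a peak (horizontal axis; number in brackets) that had peaks in both lists (grey), in control only (blue) or with siRNA 1 only (red), for 21 gene groups; the dashed line marks where the red part would start at the 9.34% of all protein-coding genes. Translation factors (33.3%) and respiratory chain genes (31.2%) have the longest red parts and ZNF genes (1.15%) a very short one.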

How the data were processed

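The authors' deposited lists give each peak's blocks, gene and region annotation with a score, a fold enrichment ratio and a −log10 FDR. For the unit of the score and for the peak caller, a statement was not given in the sources used here. Per the submitters' processing notes, HISAT2 and hg38 were used. Every listed peak has an FDR under 0.05, tested on the files. Widths are mostly multiples of 200 bases. Block sizes are listed in reverse order on the minus strand and were turned, after which all peak ends match.

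Sharing needed 1 base in common on the same strand. Genes were matched by the Ensembl identifier in the peak name. Of 10859 identifiers, 8866 had a symbol current in RefSeq, 674 were updated, 1270 were kept and 49 had none. Starts and sequences are from RefSeq (GRCh38.p14), with 250 bases before each start. With 1 list per condition no test was run. Overlaps were checked on simulated peaks, with 4800 of 4800 classed as made. Python 3.11.15, pandas 2.3.3 and SciPy 1.17.1 were used.

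The members, the 21 gene groups and the rules were chosen with earlier results of these data known. Genes were named by rule. The rule took YTHDF2 and the 15 highest-scoring genes of each unshared class. It took the 10 highest-scoring siRNA 1-only 5′ UTR peaks in genes with a shared peak. Among pairs in the top 50% of both lists it took the 10 that lost and the 10 that gained most bases; 1 of the former is not reported here. It took the 5 highest siRNA 1 pairs and the 5 most split or joined peaks of each list. In gene groups it took up to 4 members a class in alphabetical order, or all of 5 or fewer. Genes with printed starts were taken by the score of the peak, chromosome 8 not included.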

Additional observations from a re-analysis of the deposited data

How the results depend on the processing

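Each result was recomputed under up to 7 settings. When sharing required an overlap of 50% of both peaks, 57.7% of control and 67.1% of siRNA 1 peaks were shared, siRNA 1-only peaks were 29.2% 5′ UTR and 19.2% covered a RefSeq start, control-only peaks were 28.4% stop codon and 20.1% non-coding RNA, and 42.5% of pairs were narrower. With an FDR under 0.01, 68.8% of control peaks were shared, with 39.9% 5′ UTR and 29.3% stop codon. With both lists at the length of the shorter one, 76.4% and 80.1% were shared, 1409 genes were control-only, and control-only peaks were 31.8% stop codon and 17.8% non-coding RNA. With both lists cut to the top 50% by score and the classes formed anew, 73.8% and 86.2% were shared, 1287 genes were control-only and 513 siRNA 1-only, with 35.2% 5′ UTR, 25.6% RefSeq start, 55.9% stop codon, 5.21% non-coding RNA and 38.9% narrower pairs. By fold enrichment, 79.4% of siRNA 1 peaks were shared, with 31.1% 5′ UTR, 22.1% RefSeq start, 46.7% stop codon, 17.9% non-coding RNA and 43.6% narrower. With regions free of other parts, 21.7% were 5′ UTR and 19.98% stop codon. The settings that restrict strength or overlap change which peaks are counted; the cause of the remaining movement was not tested. In all of them the 5′ UTR and RefSeq start shares of siRNA 1-only peaks stayed above those of shared siRNA 1 peaks. Whole peak spans, symbols as deposited and absence by position moved no result beyond its interval or by 1.5 times. The RefSeq start settings were chosen after seeing the data. No paired analysis was possible because each condition has 1 list. Read depth behind the peaks was not used here, so a missing peak cannot be told from one below detection.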
